A study of Mus musculus with 18 samples.

Results

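Mature luminal (ML) cells and basal cells of the normal mouse mammary gland were compared in 6 of the 18 libraries of the series. The members were the 3 ML and the 3 basal libraries of wildtype (WT) mice, paired by the mouse that gave both. Bulk messenger RNA was sequenced from cell populations isolated by flow sorting from females aged 14 weeks, with 3 individual mice per genotype and 1 library per population and mouse. Luminal progenitor (LP) cells of the same WT mice were used here to place each gene. Their libraries, like all others of the 18, also entered the statistical fit behind the p-values. The other genotype (KO) was MMTV-cre(T/+) combined with Brca2(delta/delta) and Trp53(delta/+), in which a promoter active in mammary epithelium drives Cre. ML and basal cells of 3 KO mice served as a second set of animals for marker genes. The genotype label of the 6 libraries is WT, but their strain entry matches that of the KO mice and reads MMTVcre Brca2(fl/fl) Trp53(fl/+). Whether the WT mice carried the transgene or floxed alleles is therefore not known. Stage of the estrous cycle is not stated.

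The mammary duct is a bilayer. Basal, or myoepithelial, cells form the outer layer, rest on the basement membrane, and contract in answer to oxytocin to move milk. Luminal cells line the lumen. Among them, mature luminal cells are known as the hormone-sensing cells, which carry receptors for estrogen, progesterone and prolactin and pass the signal to their neighbours through secreted ligands, while luminal progenitors are linked to the alveolar, milk-producing lineage.

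Total counts were 5973389, 11350878 and 20326052 in the ML libraries of mice 1, 2 and 3, and 22809291, 33492309 and 12083667 in the basal libraries. Levels are CPM, read counts scaled to a common library size, after TMM scaling, listed for mice 1, 2 and 3 in that order, or given as mean ± SD (n = 3). Fold changes are ML minus basal on the log2 scale, with the standard error (SE) and a Benjamini-Hochberg adjusted p-value over 16466 genes from edgeR's quasi-likelihood test with a block for each mouse. A gene was called at an adjusted p under 0.05, and called past 2-fold where a stricter test put its change beyond 2-fold at the same threshold. Of all genes tested, 57.1% were called: 4422 (26.9%) were higher in ML and 4984 (30.3%) lower. Past 2-fold, 2132 (12.9%) were higher in ML and 2877 (17.5%) lower. The median log2 fold change over all genes was -0.07. ML-high genes made up 47% of calls, and 60.4% with scaling by library totals alone, where the median was 0.27. Every share of called members below is to be read against this background. In bulk samples, fewer cells of a type and less RNA per cell cannot be told apart.

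The keratins separated the layers. Krt5 (chr15:101707069-101712905, GRCm38.p6), the type II keratin of basal cells, stood at 1839.8, 1889.7 and 1891 CPM in the basal libraries and 3.48, 2.502 and 1.92 in ML (log2 difference -9.54, SE 0.44, adjusted p = 1.8e-10). Its type I partner Krt14 (chr11:100203162-100207510) stood at 8643, 5323 and 5234 CPM in basal cells and 6.97, 2.34 and 2.22 in ML (log2 difference -10.87, SE 0.61, adjusted p = 1.1e-09). For both genes every basal library lay far above every ML library. Of the 6 keratins listed for the basal layer, 5 were lower in ML past 2-fold, including Krt17 (log2 fold change -10.01), Krt16 (-4.95) and Krt15 (-3.95). The sixth went the other way. Krt6a, a keratin of stressed and proliferating epithelia, stood at 387, 333 and 253 CPM in ML, 32.2, 8.18 and 7.91 in basal cells and 34.05, 24.4 and 21.7 in LP (log2 difference 4.58, SE 0.36, adjusted p = 3.5e-08). Thus the ML libraries held the highest Krt6a of the 3 WT populations, with no overlap.

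The simple-epithelial keratins were higher in ML. Krt8 stood at 4592, 3365 and 3791 CPM in ML and 607, 371 and 457 in basal cells (log2 difference 3.05, SE 0.22, adjusted p = 1.6e-08), and its partner Krt18 at 3144, 2335 and 2329 and 168, 81.7 and 103 (log2 difference 4.52, SE 0.27, adjusted p = 2.1e-09). The groups did not overlap, and no basal library was near 0 for Krt8. Krt19 (6.70) and Krt7 (6.81) had larger log2 fold changes. Per kilobase of transcript, ML cells held 2575 CPM per kb of Krt19, 2169.6 of Krt8 and 1859 of Krt18, against 143 of Krt6a. Basal cells held 3855 CPM per kb of Krt14, 2273 of Krt17 and 855 of Krt5. Krt23 was the exception among the luminal keratins, at 25.8, 23.2 and 27.3 CPM in basal cells and 0.317, 0.2502 and 1.497 in ML (log2 difference -5.10, SE 0.50, adjusted p = 4.0e-07).

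**Figure D1:**
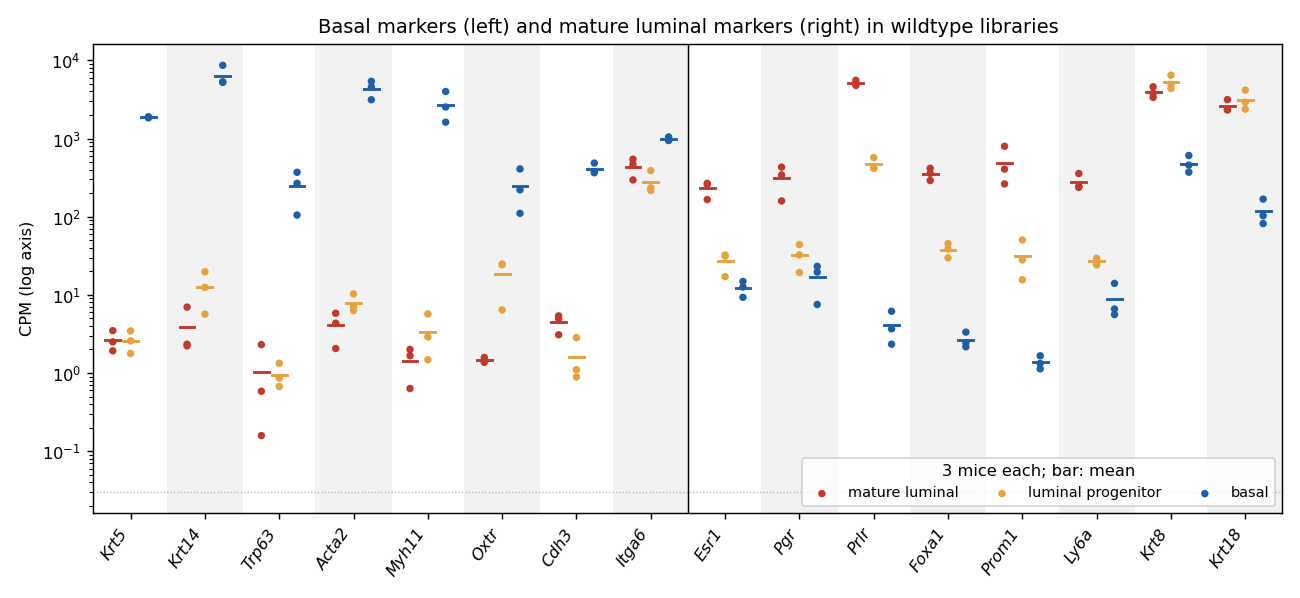
CPM on a log axis for 8 basal markers and 8 mature luminal markers in ML, LP and basal libraries of 3 WT mice; points are libraries and bars are means. All 16 markers separated ML from basal cells without overlap; the gap was smallest for Itga6.

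All 16 markers of the basal and mature luminal types were called in the direction of their label, with no overlap between groups, against 61.3% of all genes without overlap. The markers were chosen with earlier results of these data known, so this is a description and not an independent check. Trp63, the transcription factor of basal epithelia, stood at 105, 267 and 370.0 CPM in basal cells and 0.158, 0.584 and 2.31 in ML (log2 difference -7.82, SE 0.48, adjusted p = 2.6e-09). Cdh3, or P-cadherin, fell to 4.48 ± 1.22 CPM in ML from 409 ± 66.2 in basal cells. Itga6, the laminin-binding integrin subunit often used in mammary sorts, differed least, at 1049, 943 and 951 CPM in basal cells and 544, 468 and 295 in ML (log2 difference -1.22, SE 0.35, adjusted p = 0.0074). Its difference was not called past 2-fold, and without mouse 3 its adjusted p was 0.059. On the luminal side, Prom1, which encodes the surface protein CD133, stood at 796, 406 and 263 CPM in ML and 1.66, 1.33 and 1.13 in basal cells (log2 difference 8.40, SE 0.60, adjusted p = 1.1e-08). Ly6a, which encodes Sca-1, stood at 245, 357 and 237 CPM in ML and 6.6, 5.597 and 14.03 in basal cells (log2 difference 5.08, SE 0.43, adjusted p = 8.4e-08). Relative to their level in basal cells, the 8 basal markers stood at 0.0528% to 44.4% in ML (median 0.276%), with Itga6 at the top of that range.

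**Figure D2:**
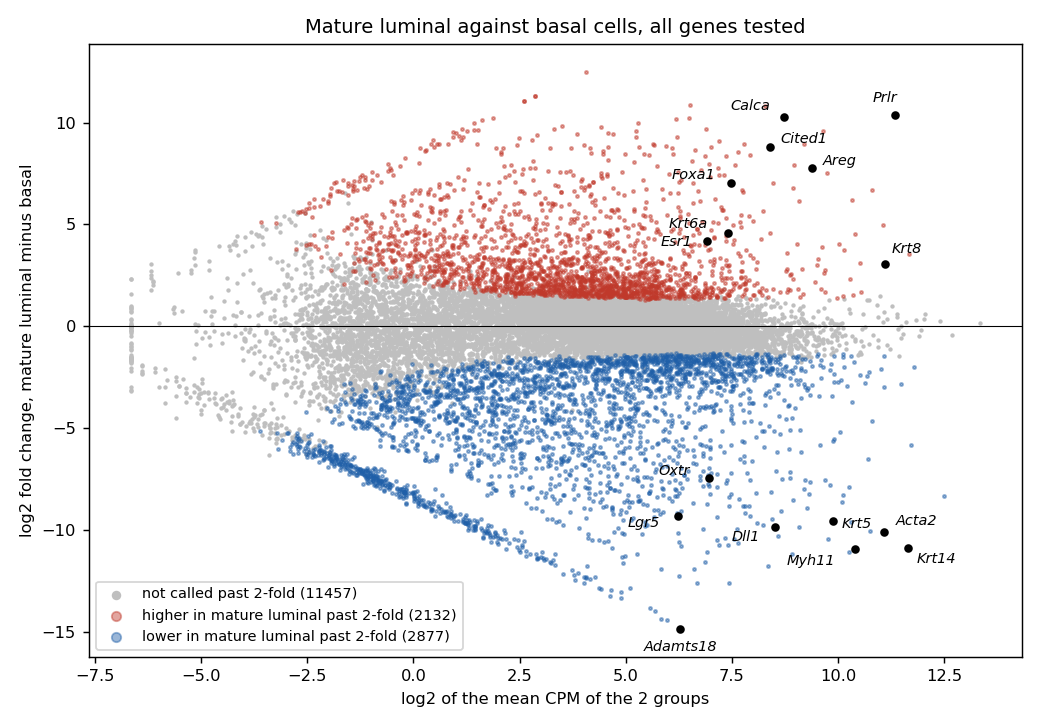
Log2 fold change (ML minus basal) against the log2 of the mean CPM of the groups for the 16466 genes tested; red and blue points were called past 2-fold. The hormone-sensing genes Prlr, Calca and Areg and the basal genes Krt14, Myh11 and Acta2 lie at the edges at high CPM; the diagonal edges are genes with few or no counts in 1 group.

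Contractile genes were higher in basal cells. Of 24 genes of the smooth muscle machinery, all tested, 23 were lower in ML (21 past 2-fold) and 0 were higher, with a list median of -5.52. Acta2 (chr19:34240336-34255585), the smooth muscle actin, stood at 3138, 4561 and 5393 CPM in basal cells and 2.06, 4.34 and 5.82 in ML (log2 difference -10.08, SE 0.47, adjusted p = 1.8e-10). Myh11, the smooth muscle myosin heavy chain, stood at 1620.1, 2531 and 3996 and 0.634, 2.002 and 1.67 CPM (log2 difference -10.90, SE 0.40, adjusted p = 8.5e-11), and Mylk, the kinase that starts contraction by phosphorylating the myosin light chain, at 667, 957 and 1290.0 and 0, 0.2502 and 0.77 CPM (log2 difference -11.16, SE 0.47, adjusted p = 1.0e-10). In each of these genes the lowest basal library lay far above the highest ML library. Light chain Myl9 (-9.29 on the log2 scale) and leiomodin Lmod1 (-7.47) were lower in ML as well. The single member without a call was Des, the intermediate filament desmin, at 3.38, 2.58 and 4.71 CPM in basal cells and 2.06, 0.334 and 2.82 in ML (log2 difference -1.34, SE 0.62, adjusted p = 0.078). The summed level of the 24 genes ran from 19450 to 30140 CPM in basal libraries and from 1493 to 1656 in ML.

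Regulators of smooth muscle genes had a list median of -1.11, against -5.52 for the contractile genes. Srf, the serum response factor that binds CArG elements, stood at 149, 257 and 308 CPM in basal cells and 142, 179 and 171 in ML and was not called (log2 difference -0.48, SE 0.22, adjusted p = 0.081). Its coactivator Myocd had 50 counts over the basal libraries and 0 over ML, at least 12-fold lower in ML. Mef2c, another muscle transcription factor, stood at 7.899, 49.4 and 53.97 CPM in basal cells and 0.317, 0 and 0.0856 in ML (log2 difference -8.56, SE 0.83, adjusted p = 3.8e-07). Of 10 regulators, 7 were lower in ML, 4 of them past 2-fold, and 1, Mrtfb, was higher by 0.67 on the log2 scale. The Mrtfb call was lost with RLE scaling (adjusted p = 0.0625), with DESeq2 (0.0612), and without mouse 1 or mouse 2 (0.195 each).

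Because the contractile genes moved together, their promoters were searched for the CArG box, spelled CC, 6 bases of A or T, and GG, which reads as the same pattern on both strands. Sequences are from RefSeq on GRCm38.p6 and run from 250 bases before the start of transcription to 50 bases after. Of the 20 contractile genes in that table, 3 (15%) held an exact box, Myl6, Myl9 and Vcl, against 1.81% of all 27025 genes of the table. Allowing up to 1 base other than A or T in the core, a search added after the data were seen, 5 of 20 (25%) held it, with Acta2 and Pdlim3, against 11.3% of all genes. The looser pattern was also present in 5 of 22 promoters (22.7%) of the luminal junction genes described further on. Exact boxes were in 2.73% of promoters of genes lower in ML past 2-fold and in 1.12% of those higher. A match is a description of letters and not a bound site. The Acta2 boxes, CCCTATATGG and CCTTGTTTGG, start 84 and 34 bases before the start used in that table, at chr19:34255448-34255457 and chr19:34255398-34255407 on the minus strand, and lie in an exon of the longer Acta2-201 transcript of GENCODE M21. Stretches upstream of Myl9 (chr2:156775273-156775407, plus strand), Vcl (chr14:20929148-20929220, plus strand) and Pdlim3 (chr8:45885357-45885436, plus strand) are shown because they hold the boxes outside any annotated exon of these genes, with the boxes in capitals:
Myl9: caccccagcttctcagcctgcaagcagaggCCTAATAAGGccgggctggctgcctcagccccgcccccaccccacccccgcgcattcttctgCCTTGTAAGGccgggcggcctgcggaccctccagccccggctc
Vcl: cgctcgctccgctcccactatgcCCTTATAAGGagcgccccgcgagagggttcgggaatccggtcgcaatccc
Pdlim3: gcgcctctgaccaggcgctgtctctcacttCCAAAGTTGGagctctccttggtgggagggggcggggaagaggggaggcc

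Receptors that trigger contraction were divided between the layers. Of 22 receptors and signalling genes tested, 15 were lower in ML (11 past 2-fold) and 7 higher (4 past 2-fold). Oxtr (chr6:112473683-112491035), the oxytocin receptor behind milk ejection, stood at 110.4, 221 and 408 CPM in basal cells and 1.58, 1.42 and 1.37 in ML (log2 difference -7.44, SE 0.39, adjusted p = 5.4e-10). All basal libraries lay above all ML libraries, and among basal libraries mouse 1 was the lowest and mouse 3 the highest. Chrm3, the muscarinic M3 receptor, and Avpr1a, a vasopressin receptor, had 0 counts in ML and were at least 101-fold and 12.3-fold lower there. P2ry1, an ATP receptor, had 2 counts over ML and 1164 over basal cells, a CPM ratio of 421 (95% interval 116 to 3480). The channel subunits Cacna1c (-7.54) and Kcnmb1 (3 counts over ML) and the kinase Prkg1 (-7.23) were also lower in ML.

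A pair of receptors known for smooth muscle contraction showed the opposite pattern. Adra1a, the alpha-1A adrenergic receptor, stood at 50.05, 117 and 59.03 CPM in ML and 0.05197, 0.144 and 0.188 in basal cells (log2 difference 9.30, SE 0.49, adjusted p = 5.4e-10). Agtr1a, the angiotensin II receptor type 1a, stood at 160.4, 661 and 379 CPM in ML and 0.624, 1.54 and 0.848 in basal cells (log2 difference 8.55, SE 0.43, adjusted p = 4.0e-10). Each ML library lay far above each basal library. In LP, Adra1a stood at 4.3 ± 2.12 CPM and Agtr1a at 28.7 ± 18.9. The phospholipases Plcb4 (2.57) and Plcb1 (1.93), which act downstream of such receptors, were higher in ML past 2-fold as well.

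Genes of attachment to the basement membrane were mostly higher in basal cells. Of 30 genes of hemidesmosomes, integrins and basement membrane, 27 were lower in ML (19 past 2-fold), 2 were higher and 1 was not called, with a list median of -4.08. Col17a1, the transmembrane collagen of hemidesmosomes, stood at 904, 608 and 799.6 CPM in basal cells and 0.317, 0.751 and 0.556 in ML (log2 difference -10.30, SE 0.39, adjusted p = 8.5e-11). The laminin chains Lama3 (-7.42) and Lamb3 (-5.11) were lower in ML as well. The genes that went against the list were Plec, which encodes the cytoskeletal linker plectin, and Lama5, the alpha chain of laminins found under most epithelia. Plec stood at 1412, 1095 and 1295 CPM in ML and 408, 340.5 and 423 in basal cells (log2 difference 1.69, SE 0.32, adjusted p = 3.8e-04). Lama5 stood at 1173, 1542 and 1078 and 581, 412 and 541 CPM (log2 difference 1.32, SE 0.33, adjusted p = 0.0031), and without mouse 2 its adjusted p was 0.066. In both genes the ML libraries lay above the basal ones.

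Matrix genes followed the same direction. Of 31 collagens, matricellular proteins and remodelling enzymes, 28 were lower in ML (25 past 2-fold) and 0 were higher (median -4.81). Sparc, a collagen-binding basement membrane protein, stood at 1447, 1129.9 and 941 CPM in basal cells and 4.75, 3.42 and 5.48 in ML (log2 difference -7.99, SE 0.33, adjusted p = 8.8e-11). Mmp2, a gelatinase, stood at 480.2 ± 19.6 CPM in basal cells and 0.956 ± 0.625 in ML. Among the 12 largest falls were Fmod, the collagen-binding fibromodulin, with 0 counts over ML and 7357 over basal cells, at least 1770-fold lower in ML, and Col12a1, with 2 counts over ML and 19771 over basal cells. Markers of fibroblasts, which make the same proteins and share 4 genes with this list, are given further on.

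Transcription factors of the basal lineage were called lower in ML in 21 of 22 cases, 19 of them past 2-fold, and none was higher (median -4.74). Snai2, a repressor of epithelial genes, stood at 76.5, 85.6 and 70.7 CPM in basal cells and 0, 0.5005 and 0.0856 in ML (log2 difference -8.57, SE 0.56, adjusted p = 4.7e-09). Irx4, a homeobox gene, stood at 88.2 ± 41.9 CPM in basal cells and 0.0848 ± 0.0856 in ML (log2 difference -9.78, SE 0.46, adjusted p = 2.0e-10). Sox10, a factor of neural crest and mammary stem-like cells, stood at 173, 83.5 and 96.7 CPM in basal cells and 2.85, 3.42 and 4.02 in ML (log2 difference -5.01, SE 0.36, adjusted p = 1.2e-08). LP libraries held 158, 131 and 193 CPM, all well above ML, so that ML was the low population for this gene.

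The receptors for prolactin, estrogen and progesterone were higher in ML. Prlr (chr15:10177238-10349190), the prolactin receptor, stood at 5094, 5557 and 4779 CPM in ML and 2.34, 6.17 and 3.67 in basal cells (log2 difference 10.38, SE 0.53, adjusted p = 4.7e-10). Esr1 (chr10:4611989-5005633), estrogen receptor alpha, stood at 267, 259 and 166 CPM in ML and 9.302, 14.9 and 12.6 in basal cells (log2 difference 4.20, SE 0.42, adjusted p = 4.5e-07). Pgr, the progesterone receptor, stood at 342, 431 and 159 and 7.54, 23.1 and 19.6 CPM (log2 difference 4.17, SE 0.49, adjusted p = 3.0e-06). No ML library overlapped a basal library in any of the 3 genes, and mouse 3 was the lowest ML library in all of them. The estrogen-related receptors Esrrb (27.4, 64.6 and 63.3 CPM in ML against 0, 0.0718 and 0.188, log2 difference 9.46, SE 0.49, adjusted p = 5.3e-10) and Esrrg (log2 fold change 5.63) were higher in ML as well.

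Of 23 hormone and nuclear receptors tested, 11 were higher in ML (7 past 2-fold) and 7 lower (5 past 2-fold), with a median of 0.61. Nr3c1, the glucocorticoid receptor, was lower in ML, at 26.4, 14.8 and 16.6 CPM against 116, 143 and 131 in basal cells (log2 difference -2.80, SE 0.27, adjusted p = 4.3e-07). Vdr, the vitamin D receptor, stood at 38.2, 42.9 and 66.99 CPM in ML and 342, 208 and 216 in basal cells (log2 difference -2.30, SE 0.30, adjusted p = 1.0e-05). LP libraries held 156 ± 22.6 CPM of Nr3c1 and 228 ± 97.3 CPM of Vdr, so that ML had the lowest level of both. Thrb, a thyroid hormone receptor, was also lower in ML (-3.22).

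Transcription factors tied to luminal fate were split. Of 34 tested, 15, Gata3 among them, were higher in ML (12 past 2-fold) and 9 lower, all 9 past 2-fold (median 0.62). Foxa1, the pioneer factor that opens chromatin for the estrogen receptor, stood at 290.3, 359 and 417 CPM in ML and 2.44, 3.34 and 2.17 in basal cells (log2 difference 7.04, SE 0.40, adjusted p = 1.3e-09). Cited1, a coactivator of the estrogen receptor, stood at 848, 588 and 574 and 2.18, 1.97 and 0.283 CPM (log2 difference 8.81, SE 0.38, adjusted p = 1.0e-10). The groups were far apart in both genes. Spdef (4.72) and Tbx3 (2.62) were also higher in ML.

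Gata3, often used as a luminal master regulator, differed little between the layers, at 161, 223 and 186 CPM in ML and 138, 101 and 103 in basal cells (log2 difference 0.73, SE 0.26, adjusted p = 0.023). Its call was lost without mouse 2 (adjusted p = 0.246) and without mouse 3 (0.147). Prdm1, the repressor Blimp-1, was basal, at 354, 228 and 171 CPM against 0.158, 2.17 and 0.342 in ML (log2 difference -8.20, SE 0.52, adjusted p = 3.6e-09). Runx1 stood at 1765, 1772 and 1782 CPM in basal cells and 632, 509 and 289 in ML (log2 difference -2.001, SE 0.28, adjusted p = 2.3e-05), and Runx2 at 40.5 ± 7.76 and 0.544 ± 0.3797 CPM (log2 difference -6.19, SE 0.35, adjusted p = 1.1e-09). For these RUNX factors and Prdm1 all basal libraries lay above all ML libraries. Tfap2c was lower in ML (-3.87), and Sox9, at 323 ± 92.5 CPM in ML and 357 ± 30.4 in basal cells, was not called.

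**Figure D3:**
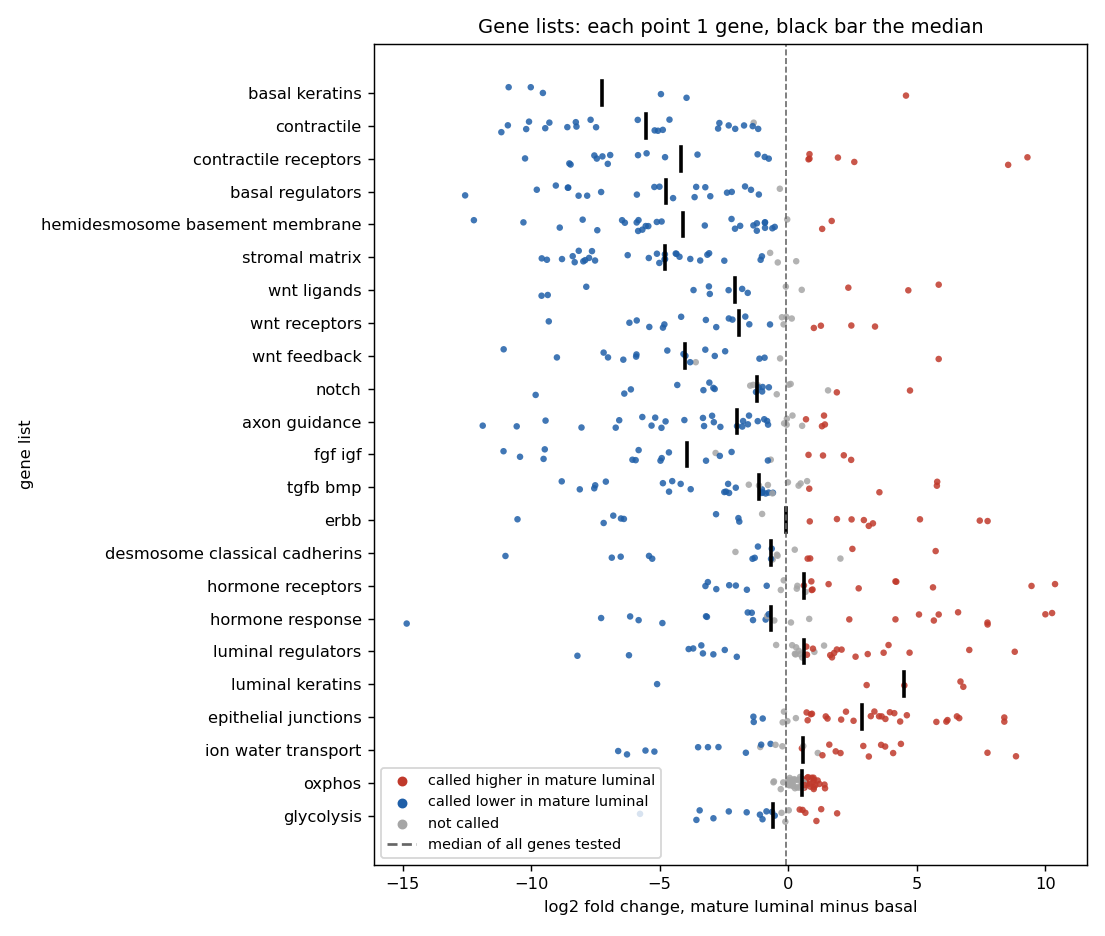
Log2 fold change (ML minus basal) of each tested member of 23 gene lists; red and blue points were called, grey points were not, the black bar is the list median and the dashed line the median of all genes (-0.07). The contractile, basal regulator, matrix and Wnt feedback lists lie to the left, and luminal keratins and epithelial junctions to the right; the ErbB list spreads to both sides.

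Some ligands that hormone-sensing cells are known to release were higher in ML, while the hormone response list as a whole was split. Of 26 genes tested from that list, 10 were higher in ML, all past 2-fold, and 12 were lower, 7 past 2-fold (median -0.65). Areg, the amphiregulin that relays estrogen, stood at 1519.7, 1754 and 725 CPM in ML and 14.3, 4.05 and 2.54 in basal cells (log2 difference 7.75, SE 0.45, adjusted p = 1.5e-09). Wnt4, a relay of progesterone, stood at 239.6, 490.1 and 168 and 9.56, 2.83 and 2.83 CPM (log2 difference 5.85, SE 0.47, adjusted p = 4.2e-08). Both were high in all 3 ML libraries, lowest in mouse 3.

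A further pair of progesterone-linked genes varied strongly between mice. Tnfsf11, which encodes RANK ligand, stood at 2.85, 221 and 8.43 CPM in ML and 0.05197, 0.179 and 0 in basal cells (log2 difference 10, SE 1.29, adjusted p = 8.5e-06). Calca, the calcitonin gene, stood at 4.43, 780.3 and 1774 CPM in ML and 0.05197, 0.897 and 0.753 in basal cells (log2 difference 10.26, SE 0.62, adjusted p = 2.1e-09). ML lay above basal cells within every mouse, but mouse 1 had little of either transcript, and mouse 2 held most of the Tnfsf11. The LP libraries followed the same mice at a lower level, with Tnfsf11 at 0.123, 19.7 and 0.306 CPM and Calca at 0.123, 65.7 and 115. Tnfrsf11a, the receptor of RANK ligand, was on the other side, at 11.7, 23.2 and 40.5 CPM in basal cells, 9.499, 28.9 and 29.2 in LP and 0.158, 0.5005 and 0.257 in ML (log2 difference -6.46, SE 0.47, adjusted p = 1.4e-08).

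Other known hormone targets were basal. Adamts18, a secreted protease, had 60.1, 175 and 231 CPM in basal cells and 0 counts in every ML library, at least 2040-fold lower in ML. Its fitted fall was the largest of all genes. Greb1, a classic estrogen target, was lower in ML, at 3.17, 0.334 and 0.171 CPM against 11.2, 40.6 and 17.99 in basal cells (log2 difference -4.89, SE 1.00, adjusted p = 6.5e-04), although Esr1 was higher in ML. Id4 (-7.28), Igfbp5 (-5.82), Cxcl12 (-6.15) and Myc (-3.16) were lower in ML, and Stc2 (5.66), Ly6d (6.61), Aqp5 (7.75) and Ccnd1 (2.37) higher. The full estrogen response element GGTCANNNTGACC, searched on both strands, was in 0 of 20 hormone response promoters of the RefSeq table and in 0.074% of all promoters, which says only that these letters are not in those windows.

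ErbB ligands and receptors were divided between the layers. Of 18 genes tested, 9 were higher in ML (6 past 2-fold) and 8 lower (8 past 2-fold). Egfr, the receptor of amphiregulin, stood at 179.9, 275 and 308 CPM in basal cells and 1.58, 3.003 and 1.03 in ML (log2 difference -7.18, SE 0.42, adjusted p = 1.4e-09). Erbb3, a receptor of neuregulins, stood at 238, 281 and 252 CPM in ML and 8.52, 5.45 and 8.38 in basal cells (log2 difference 5.12, SE 0.46, adjusted p = 1.6e-07). Its partner Erbb2 stood at 124, 159 and 175 and 35.03, 22.4 and 26.9 CPM (log2 difference 2.46, SE 0.24, adjusted p = 4.4e-07). Egfr was thus the basal receptor, with Erbb3 and Erbb2 on the ML side and no overlap in any of them.

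The ligands were split as well. Besides Areg, the EGFR ligands Btc (27.1 ± 8.38 CPM in ML, 0.143 ± 0.04401 in basal cells) and Epgn (3.13 on the log2 scale) were higher in ML. Nrg1, a neuregulin that binds ERBB3, stood at 62.3, 58.3 and 22.8 CPM in basal cells, with 1 count over all ML libraries, a ratio of 2220 (95% interval 397 to 87500). Ereg (-6.80), Nrg2 (2 counts over ML) and Hbegf (-1.90) were basal, and Nrg4 (3.29) was higher in ML. LP libraries held both Egfr (144 ± 14.6 CPM) and Erbb3 (149 ± 37.9 CPM). The feedback inhibitors Errfi1 (-2.81), Lrig1 (-1.94) and Lrig3 (-6.39) were lower in ML.

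**Figure D4:**
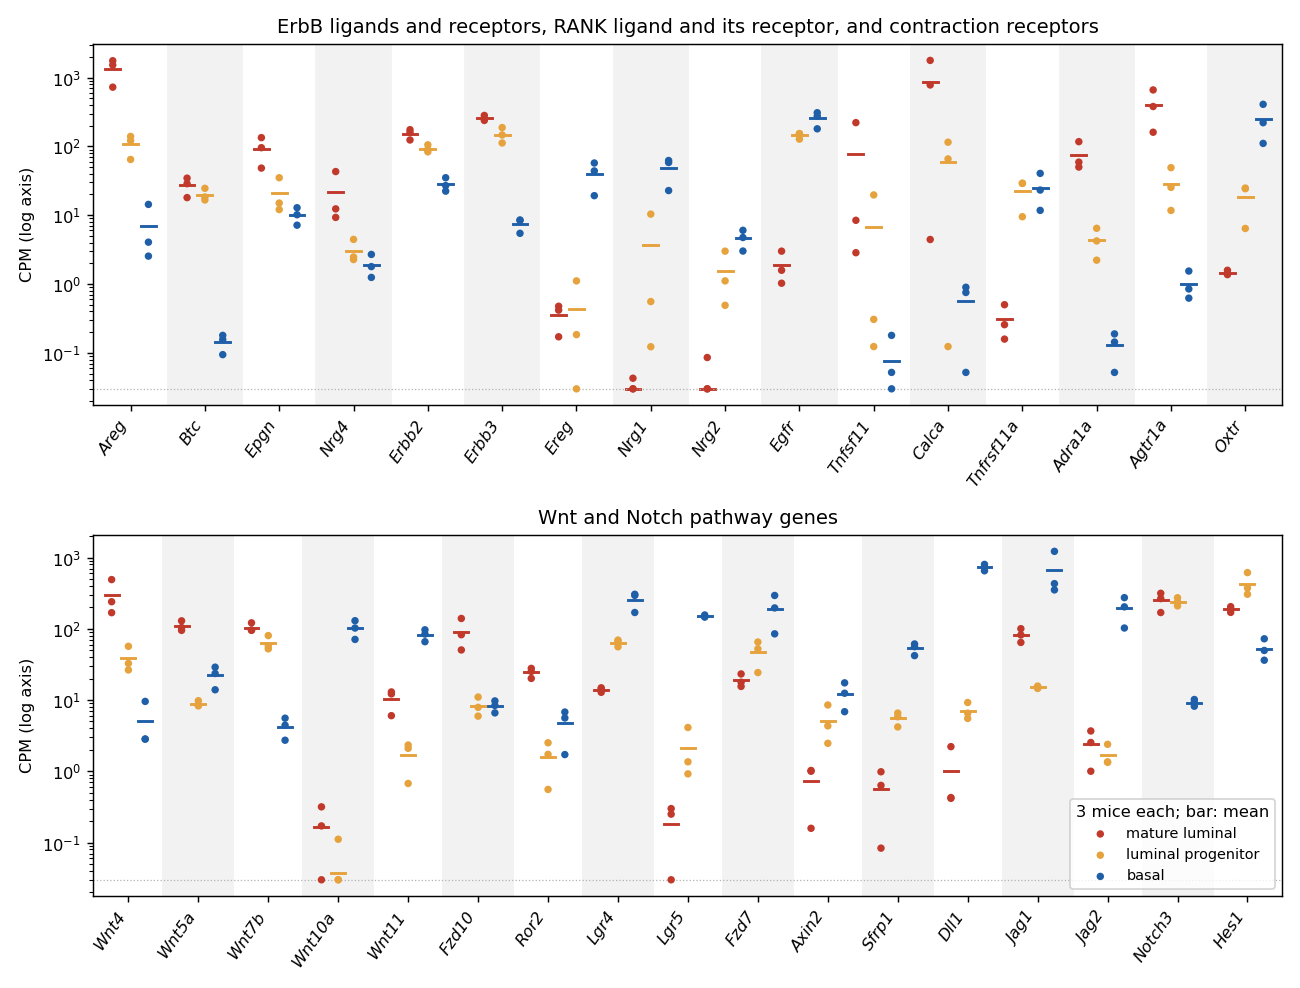
CPM on a log axis of ligands and receptors in ML, LP and basal libraries of 3 WT mice; points are libraries, bars are means, and points on the dotted line stand for 0 counts or a level below it. Areg, Erbb3, Calca, Wnt4 and Notch3 were higher in ML, and Nrg1, Egfr, Tnfrsf11a, Oxtr, Lgr5 and Dll1 in basal cells.

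Wnt signalling genes lay mostly on the basal side. Of 22 receptors and co-receptors, 14 were lower in ML (12 past 2-fold) and 4 higher (2 past 2-fold), with a median of -1.92. Lgr5, an R-spondin receptor known from stem cells, stood at 146, 156 and 147 CPM in basal cells and 0, 0.2502 and 0.299 in ML (log2 difference -9.31, SE 0.55, adjusted p = 1.7e-09). Lgr4, its broadly expressed relative, stood at 169, 294 and 305 and 12.8, 14.3 and 14.8 CPM (log2 difference -4.16, SE 0.24, adjusted p = 1.5e-09), and Procr, a marker of a basal subset, at 38.7 ± 36.7 and 0.585 ± 0.565. The receptors higher in ML past 2-fold were Fzd10, at 139.5, 82.5 and 50.4 CPM against 9.72, 6.602 and 8.38 (log2 difference 3.37, SE 0.42, adjusted p = 5.9e-06), and Ror2, the receptor of Wnt5a, at 25.2, 20.1 and 27.8 against 1.71, 5.597 and 6.78 (log2 difference 2.45, SE 0.41, adjusted p = 1.0e-04). Basal and ML libraries did not overlap in any of these receptors.

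Of 14 Wnt ligands and their helpers that passed the filter on low counts, out of 24, 9 were lower in ML (7 past 2-fold) and 3 higher (all past 2-fold). The ligands higher in ML were Wnt4, Wnt7b (121, 95.9 and 95.1 CPM against 5.56, 2.73 and 4.43) and Wnt5a (129, 104 and 94.96 against 13.9, 23.6 and 28.9), the latter known for signalling without beta-catenin. Wnt10a stood at 129.8, 70.9 and 102 CPM in basal cells and 0.317, 0 and 0.171 in ML (log2 difference -9.35, SE 0.53, adjusted p = 1.1e-09), and Wnt11 at 82.3 ± 15.6 and 10.4 ± 3.804. Wnt6 had 0 counts in ML, at least 53.3-fold lower. Of 19 feedback genes and secreted inhibitors, 16 were lower in ML (14 past 2-fold), and the 1 that was higher was Wnt4 itself (median -4). Axin2, a general target of beta-catenin, stood at 6.86, 12.4 and 17.4 CPM in basal cells and 0.158, 1.001 and 1.03 in ML (log2 difference -4.07, SE 0.37, adjusted p = 1.7e-07). The inhibitor Wif1 (241 ± 80.7 CPM in basal cells, 0.0984 ± 0.0874 in ML) was the largest fall of this list.

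The Notch ligands Dll1, Jag1 and Jag2 were higher in basal cells and the receptor Notch3 in ML. Dll1 stood at 801, 727 and 652 CPM in basal cells and 2.22, 0.417 and 0.428 in ML (log2 difference -9.82, SE 0.45, adjusted p = 1.7e-10), Jag2 at 102, 203 and 274 and 2.53, 1.001 and 3.68 (log2 difference -6.38, SE 0.37, adjusted p = 1.5e-09), and Jag1 at 1220.5, 351 and 429.9 and 64.3, 100.3 and 81.9 (log2 difference -2.86, SE 0.38, adjusted p = 1.1e-05). All 3 ligands were higher in every basal library than in any ML library. Notch3, a receptor of luminal cells, stood at 169, 265 and 315 CPM in ML and 9.302, 8.18 and 10.2 in basal cells (log2 difference 4.74, SE 0.32, adjusted p = 7.2e-09), and the target Hes1 at 189, 169.8 and 204 and 49.6, 36.2 and 72.3 (log2 difference 1.89, SE 0.24, adjusted p = 8.5e-06). Notch1 stood at 121, 109 and 112 and 98.8, 128 and 116 CPM and was not called (log2 difference 0.02, SE 0.29, adjusted p = 0.96). Other targets, Hey1 (-2.91) and Hey2 (-3.30), were lower in ML. In all, 13 of 22 genes tested were lower in ML (8 past 2-fold) and 2 higher.

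Other growth factor pathways leaned to the basal side. In the FGF and IGF list, 14 of 20 genes were lower in ML (13 past 2-fold) and 4 higher (1 past 2-fold), with a median of -3.92. The exception past 2-fold was Fgfr2, a receptor for stromal FGFs, at 1104, 1256 and 1086 CPM in ML and 284, 210.4 and 274 in basal cells (log2 difference 2.16, SE 0.34, adjusted p = 5.8e-05). Igf1r, the IGF receptor, stood at 195, 197 and 249 CPM in basal cells and 4.28, 5.92 and 10.95 in ML (log2 difference -4.92, SE 0.36, adjusted p = 1.6e-08), and the binding protein Igfbp3 at 1738 ± 1016 and 0.933 ± 0.404. ML libraries were thus higher in Fgfr2 and lower in Igf1r, without overlap in either.

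In the TGF-beta and BMP list, 21 of 33 were lower in ML (14 past 2-fold) and 4 higher (3 past 2-fold). The accessory receptor Tgfbr3 (-8.11), the activin inhibitor Fst (-7.51) and Fstl1 (-8.81) were lower in ML. Bmpr1b, a BMP receptor, at 71.7, 118 and 69.2 CPM in ML and 0.5197, 3.59 and 1.22 in basal cells (log2 difference 5.79, SE 0.43, adjusted p = 2.0e-08), Bmp3 (5.78) and the activin subunit Inhbb (3.55) were higher in ML. In the axon guidance list, 26 of 35 were lower in ML (19 past 2-fold) and 4 higher (1 past 2-fold, the semaphorin Sema4b). The secreted repellent Slit3 had 1 count over ML and 102, 124 and 118 CPM in basal cells, and Slit2 stood at 87, 134 and 78.5 and 0.317, 0.834 and 1.24 CPM (log2 difference -6.71, SE 0.50, adjusted p = 1.9e-08). Ephb1, an ephrin receptor, had 0 counts in ML and 5754 over basal cells, at least 1390-fold lower in ML.

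Junction genes of polarised epithelium were mostly higher in ML. Of 32 adherens and tight junction and polarity genes, 25 were higher (21 past 2-fold) and 3 lower, none past 2-fold, with a median of 2.88. Cldn7, a claudin of luminal tight junctions, stood at 212, 206 and 195 CPM in ML and 2.03, 1.94 and 2.17 in basal cells (log2 difference 6.65, SE 0.26, adjusted p = 8.8e-11). Cldn4 stood at 3227, 2048 and 2364 and 63.2, 17.8 and 31.6 CPM (log2 difference 6.19, SE 0.36, adjusted p = 1.6e-09), and occludin, Ocln, at 116, 86.2 and 98.9 and 5.25, 3.37 and 3.86 (log2 difference 4.61, SE 0.20, adjusted p = 1.0e-10). The ML and basal libraries were far apart in all 3. LP libraries held Cldn7 at 292 ± 90.4 CPM, Cldn4 at 1651 ± 75.4 and Ocln at 180.3 ± 46.8. Cldn8 stood at 93.8 ± 33.1 CPM in ML and 27.9 ± 14.6 in LP, and Cldn10 at 136 ± 40.6 and 9.37 ± 2.599. The Grainyhead element AACCGGTT, searched on both strands after the data were seen, was in 0 of 22 junction promoters and 0.174% of all.

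Epcam and Cdh1, general epithelial adhesion genes, differed by smaller amounts. Epcam stood at 2005, 2173 and 1633 CPM in ML and 858, 653 and 542 in basal cells (log2 difference 1.53, SE 0.21, adjusted p = 1.7e-05). Cdh1, which encodes E-cadherin, stood at 1048, 859 and 688 and 1128, 394 and 300.2 CPM, with groups that overlapped (log2 difference 0.76, SE 0.31, adjusted p = 0.045), and its adjusted p was 0.43 without the mouse block, 0.323 without mouse 2 and 0.318 without mouse 3. Desmosome paralogs differed between the layers. Dsc3, a desmocollin of stratified epithelia, had 9.87, 14.5 and 13.5 CPM in basal cells and 0 counts in ML, at least 178-fold lower, while Dsc2 stood at 118, 75.7 and 86.5 CPM in ML and 11.3, 16.04 and 21.2 in basal cells (log2 difference 2.49, SE 0.34, adjusted p = 1.3e-05). Plakophilin 1, Pkp1, stood at 1426, 398 and 521 CPM in basal cells and 22.97, 19.1 and 10.3 in ML (log2 difference -5.29, SE 0.31, adjusted p = 1.7e-09), and plakophilin 2, Pkp2, at 0.987, 1.005 and 0.848 and 57.5, 53.2 and 40.2 (log2 difference 5.73, SE 0.24, adjusted p = 8.8e-11). Each paralog pair was thus divided without overlap. Of 20 desmosome and cadherin genes, 10 were lower in ML (5 past 2-fold) and 4 higher (2 past 2-fold).

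Ion and water transport genes were divided. Of 28 tested, 13 were higher in ML (10 past 2-fold) and 10 lower (8 past 2-fold), with a median of 0.56. Fxyd2, a regulator of the sodium pump, stood at 166, 114 and 89.8 CPM in ML and 0.364, 0.215 and 0.188 in basal cells (log2 difference 8.86, SE 0.48, adjusted p = 7.0e-10). Aqp5, a water channel of secretory glands, stood at 379, 222 and 257 and 0.935, 0.825 and 2.73 CPM (log2 difference 7.75, SE 0.53, adjusted p = 6.6e-09), and Scnn1a, a subunit of the epithelial sodium channel, at 201, 373 and 199 and 9.61, 15.9 and 10.8 (log2 difference 4.38, SE 0.23, adjusted p = 5.4e-10). All 3 were higher in every ML library. The zinc and manganese transporter Slc39a8 (-6.61) and the calcium channels Trpv6 (-5.55) and Trpv4 (-5.20) were lower in ML.

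The 12 largest rises and 12 largest falls by log2 fold change were taken among genes called past 2-fold with at least 5 CPM in the higher group. The rises were Slc16a5, Slco1a6, Reg3g, Cxcl15, Dmbt1, Prlr, Calca, Alk, Cyp3a57, Galnt9, Tnfsf11 and Ly6m. Slc16a5, a monocarboxylate transporter, had 40.7, 31.7 and 27.9 CPM in ML and 0 counts in basal cells, at least 595-fold higher. Dmbt1, a mucosal scavenger protein, stood at 1061, 294 and 516 CPM in ML and 0.312, 0.108 and 0.753 in basal cells (log2 difference 10.83, SE 0.68, adjusted p = 3.1e-09), and Cxcl15, a chemokine of lung epithelium, at 215, 136 and 194 and 0.104, 0.108 and 0 (log2 difference 10.88, SE 0.45, adjusted p = 8.8e-11). These transcripts were at or near 0 in every basal library. Alk, a receptor tyrosine kinase, had 10.5, 5.59 and 5.86 CPM in ML and 0 counts in basal cells, at least 124-fold higher.

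The falls were Adamts18, Fmod, Serpina3i, Ephb1, Il17b, Sdk1, Cpxm2, Sorcs1, Hs6st2, Brinp3, Gfra1 and Col12a1. The first 11 had 0 counts over all ML libraries. Il17b, an interleukin-17 family cytokine, stood at 42.3, 68.9 and 67.7 CPM in basal cells, at least 832-fold lower in ML, and Gfra1, a receptor of glial-derived neurotrophic factor, at 155, 23.9 and 25.99, at least 946-fold lower. All 3 basal libraries carried these transcripts. Serpina3i, Slco1a6, Cyp3a57, Reg3g and Ly6m belong to families with close copies, and the counting of reads shared between copies is not stated, so their values are uncertain. In LP the 12 rises stood at 4.61% to 32.1% of their ML level (median 7.7%), and the 12 falls at 0% to 3.72% of their basal level (median 0.225%). Luminal progenitor markers stood in ML at 1.62% to 4.93% of their LP level (Kit 11.8 ± 1.37 CPM in ML, 726 ± 203 in LP). The part of cells of 1 population in the sort of another in these low levels was not tested.

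The LP level of each lineage gene was set on a log2 scale with the basal level at 0 and the ML level at 1. Before the log, 0.5 CPM was added to each group mean. A basal gene near 0 in both ML and LP therefore lies close to 1 whatever its exact LP level. These values share the ML and basal libraries with the comparison and are descriptions; 41.1% of genes were called between LP and basal cells and 39.4% between LP and ML. Among the 2132 genes higher in ML past 2-fold, LP was nearer to ML for 50.1% and nearer to basal cells for 49.9%, and it lay outside the interval for 309 past ML and 153 past basal cells. Among the 2877 genes lower in ML, LP was nearer to ML for 59.6%, and it lay past ML for 465 and past basal cells for 324. Esr1 lay at 0.264 and Prlr at 0.659 on this scale, so LP held intermediate levels of both, while Notch3 lay at 0.988 and Krt18 at 1.06, at the ML level. Of the basal genes, Acta2 lay at 0.911 and Krt5 at 1.00, at or near the ML level. Egfr at 0.121, Igf1r at 0.105 and Sox10 at -0.0913 lay near the basal level. For these 3 genes ML was the low population.

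**Figure D5:**
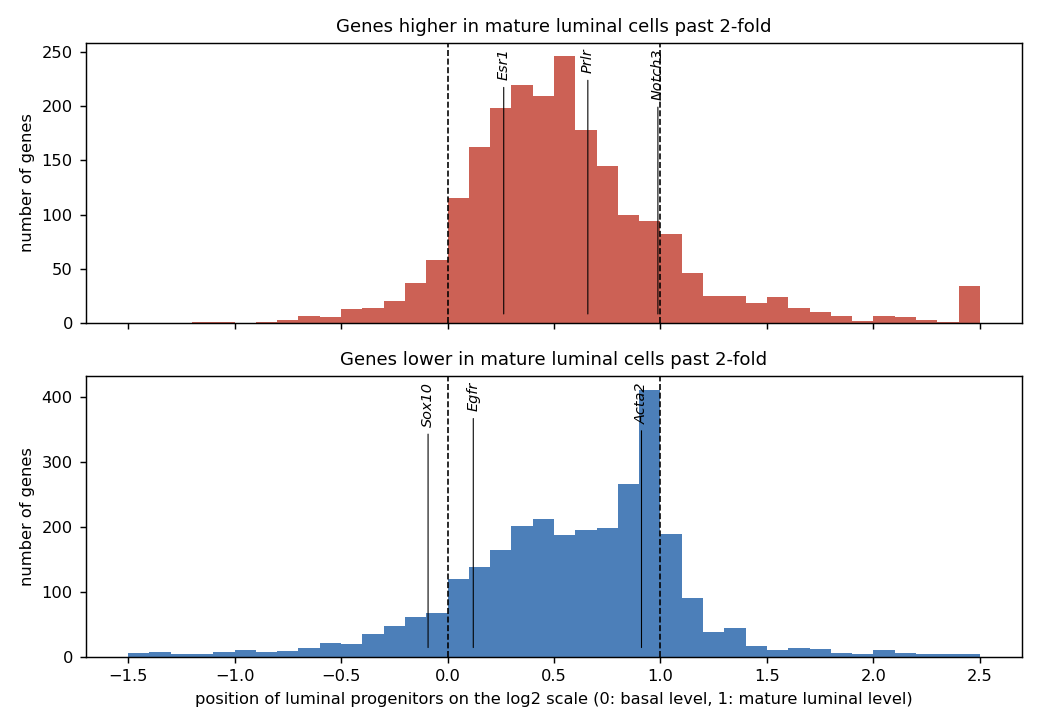
Number of genes by the position of LP between basal cells (0) and ML (1) on the log2 scale, for genes higher (top) and lower (bottom) in ML past 2-fold. Each group mean had 0.5 CPM added before the log, and values beyond the axis are counted in the end bins. Genes higher in ML spread around the middle (median 0.501), and genes lower in ML pile up near 1 (median 0.641), with Egfr and Sox10 among those near 0.

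Markers of immune cells summed to low levels in both sorts, and markers of the other cell types to higher levels. Of 15 fibroblast markers, 13 were lower in ML (12 past 2-fold), with summed levels of 727.3 to 992.3 CPM in basal and 59.23 to 277.5 in ML libraries. Dcn, a defining fibroblast proteoglycan, stood at 18.1, 157 and 265 CPM in ML and 150.3, 176 and 175 in basal cells and was not called (log2 difference -0.70, SE 0.68, adjusted p = 0.39), while Col1a1 (11.1, 3.67 and 1.92 and 35.8, 27.7 and 37.96 CPM) and Pi16 (0.475, 0.2502 and 0 and 43.2, 23.9 and 73.7) were lower in ML. Dcn was thus high in ML mice 2 and 3, while 13 of the other 14 fibroblast markers were lower in ML. Of 22 immune markers, 13 were below the filter on low counts, among them Ptprc and Cd3e, and the 9 tested summed to 13.2 to 18.84 CPM in basal and 4.663 to 5.589 in ML libraries. Endothelial and pericyte markers summed to 50.37 to 62.91 CPM in basal and 329.6 to 538.6 in ML libraries, but 9 of 14 were lower in ML. The sum rested on Notch3 and on Vwf, von Willebrand factor, at 147, 234 and 215 CPM in ML against 5.25, 6.31 and 10.5. Of 10 adipocyte markers, 6 passed the filter, with 2 higher and 3 lower in ML, and of 12 tested markers of red cells, muscle and Schwann cells 3 were higher and 3 lower. The part of other cell types in the matrix results was not tested.

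ML and basal cells of the KO mice, which are other animals and libraries, were tested for the same difference. Both comparisons came from the same fit with a shared estimate of the spread, so their p-values are not independent. Over whole genes, Brca2 stood at 4.75, 7.92 and 15.7 CPM in WT ML and 11.2 ± 4.06 in KO ML, and Trp53 at 47.2, 49.2 and 39.6 and 15.2 ± 1.72. Whole-gene counts also hold reads from outside the deleted exons and so do not check the labels. In KO, 6635 genes (40.3%) were called and 2721 (16.5%) past 2-fold. Of the 5009 genes called past 2-fold in WT, 80.1% were called at any size in the same direction in KO and 13 in the opposite direction. With the stricter test in KO as well, 2400 (47.9%) were called past 2-fold in the same direction. All 16 basal and ML markers were called in KO in the WT direction. The difference between genotypes was called for 1441 genes (8.75%), of which 1371 had the smaller difference in KO, and for 11 of the 16 markers, all 11 smaller in KO. For Krt14 the log2 fold change was -10.87 in WT and -3.77 in KO (difference -7.10, SE 0.65, adjusted p = 5.3e-06), and for Prlr it was 10.38 in WT and 6.44 in KO (difference 3.93, SE 0.54, adjusted p = 1.7e-04). Itga6, Esr1, Pgr, Krt8 and Krt18 had no called difference.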

How the data were processed

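Bulk RNA-seq libraries (TruSeq RNA v2, per the labels' protocols) were read as whole-number counts per gene, deposited by the authors without normalization. The submitters' processing notes name featureCounts and mm10. Aligner, annotation, versions and strand setting were not given in the sources used here. Because the kit does not mark strand, overlapping and antisense genes cannot be told apart. Of 27179 gene IDs, 25275 matched a symbol in RefSeq genes of GRCm38.p6.

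Genes passing filterByExpr (16466) were fitted with edgeR 4.0.16 (R 4.3.3), using TMM scaling and the quasi-likelihood test on all 18 libraries, with 6 group means and the mouse as a block. The mouse number that begins each column name gives the pairing. Same-mouse deviations correlated at 0.14, 0.123 and 0.0949, and those of different mice at -0.111 to 0.0301. P-values were adjusted by Benjamini-Hochberg, and glmTreat tested changes beyond 2-fold. The block takes out each mouse's own level, so p-values measure how differences between populations vary among 3 mice per genotype. That spread was estimated over all 18 libraries, KO included, with 8 residual degrees of freedom. A gene with 0 counts in 1 group has a bound from 3 counts over that group, and intervals (95%) cover counting error only. Alternatives were other scalings, no filter, no block, DESeq2 1.42.0, limma 3.58.1 and each mouse or library left out. On simulated data for ML WT against basal WT (16466 genes), 26.7% of 2-fold, 75.3% of 4-fold and 88.7% of 8-fold changes were called, with 4.32% of calls false. Each fold size had 150 changed genes over 3 runs, and all unchanged genes were equal in the groups. In the real data 57.1% of genes were called, so these rates describe the simulated setting and not this comparison.

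Members and gene lists were chosen with earlier results of these data known. Named genes were the markers and keratins, the 12 largest changes each way among genes called past 2-fold with at least 5 CPM (predicted genes left out), the 5 members of each list with the lowest p in either direction, called members that went against their list, and ligands and receptors called past 2-fold. Others, such as genes without a call, were chosen after their values were seen.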

Additional observations from a re-analysis of the deposited data

Results flagged for a closer look

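For 11 of the 16 markers the ML minus basal difference in WT mice differed from that in KO mice, by a test of the difference itself in the same fit (edgeR quasi-likelihood, adjusted over 16466 genes, 3 mice per genotype). The WT minus KO difference on the log2 scale was -6.19 for Krt5, -7.10 for Krt14, -4.88 for Trp63, -2.62 for Acta2, -2.98 for Myh11, -2.62 for Oxtr and -2.43 for Cdh3. It was 3.93 for Prlr, 2.73 for Foxa1, 4.43 for Prom1 and 2.67 for Ly6a. Each of these markers kept its WT direction in KO with a smaller difference. Over all genes tested, such a difference was called for 1441 (8.75%), and 1371 of them were smaller in KO, so the smaller size is not particular to the markers. For Krt5 the log2 fold change was -9.54 in WT and -3.35 in KO (difference -6.19, SE 0.48, adjusted p = 1.6e-06), and for Trp63 it was -7.82 in WT and -2.94 in KO (difference -4.88, SE 0.56, adjusted p = 3.7e-05). For Prom1 it was 8.40 in WT and 3.98 in KO (difference 4.43, SE 0.68, adjusted p = 4.6e-04). Mean Krt5 was 157 ± 23.4 CPM in KO ML cells and 2.64 ± 0.788 in WT ML cells. The part of basal cells in the KO ML sort was not tested.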

How the results depend on the processing

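In WT, the count of called genes and the count past 2-fold stayed within 1.5 times their value under every alternative run. The KO count was rerun only without the replicate block, where it was 5663 against 6635. No named gene that was called in the main fit or in the alternative changed direction. A change of sign in a gene called in neither was not counted. Each alternative tested all 371 named genes, except the 9 WT libraries alone (358), the 6 libraries alone (362) and thinned counts (360). Called genes ran from 7411 (without mouse 2) to 9841 (library totals), with 9821 by DESeq2 and 9140 by limma voom, against 9406. Past 2-fold, counts ran from 3926 (DESeq2) to 5368, against 5009. Without the replicate block, 8773 genes were called and 4715 past 2-fold, and 17 of the 371 named genes lost their call. Calls lost were 12 without mouse 1, 24 without mouse 2 and 26 without mouse 3, and 9 to 21 without a single library. Genes higher in ML were 47% of calls, and 44.4% with RLE scaling, 52.6% with upper quartile scaling and 60.4% with library totals. Of 50 oxidative phosphorylation genes 23 were called, 38 with library totals, 13 without mouse 2 and 12 without mouse 3. The ErbB median changed sign with the setting. Depth limits genes near 0 in ML mouse 1, the smallest library, and 636 tested genes had 0 counts in ML.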

Other observations

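Genes of energy metabolism were split between the layers. Of 50 nuclear-encoded oxidative phosphorylation subunits, 23 were higher in ML, 1 past 2-fold, and 0 lower, with a list median of 0.55. This count fell to 13 without mouse 2 and 12 without mouse 3. Of 20 glycolysis genes, 11 were lower in ML (6 past 2-fold) and 6 higher (1 past 2-fold), with 10 called in all without mouse 2. Lactate transporter Slc16a3 stood at 48.5, 12.6 and 16.1 CPM in basal cells and 0.158, 0.334 and 0.428 in ML (log2 difference -5.76, SE 0.54, adjusted p = 2.6e-07), and glucose transporter Slc2a1 at 777, 557 and 359.7 and 115, 113 and 90.05 (log2 difference -2.31, SE 0.26, adjusted p = 2.1e-06). Basal libraries were higher in both transporters.

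D-type cyclins were split as well. Ccnd2, cyclin D2, stood at 73.7, 113 and 162 CPM in basal cells and 0.317, 0.0834 and 0.257 in ML (log2 difference -9.12, SE 0.47, adjusted p = 4.7e-10), while Ccnd1, cyclin D1, stood at 190.1, 290.1 and 369 CPM in ML and 64.6, 38.9 and 50.3 in basal cells (log2 difference 2.37, SE 0.36, adjusted p = 4.6e-05). Of 28 S and M phase genes, 8 were higher in ML (7 past 2-fold) and 3 lower, so 39.3% were called against 57.1% of all genes. Their summed level overlapped, at 307.5 to 467.9 CPM in ML and 395.7 to 435.6 in basal libraries. Of 27 interferon and MHC genes, 9 were higher in ML and 10 lower. Those higher included the immunoproteasome subunit Psmb8 (2.46), and those lower included the class II chaperone Cd74 (-5.01). Ifit3 had 0 counts over ML and 96 over basal cells, at least 23.1-fold lower in ML. Of 20 milk and secretion genes, 10 were higher in ML and 3 lower. Their summed level was 787.3 to 1094 CPM in ML, 2504 to 3060 in basal and 11330 to 23150 in LP libraries. Most of the basal sum was Lcn2, an iron-scavenging lipocalin, at 2312, 2219 and 1661 CPM in basal cells and 41.3, 34.9 and 97.2 in ML (log2 difference -5.16, SE 0.55, adjusted p = 1.1e-06).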
